A study of Mus musculus with 15 samples.

Results

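The genes described here are 9 genes of heme synthesis and breakdown: the synthesis enzymes Alas1, Alad, Uros, Urod, Cpox, Ppox and Fech, and the heme oxygenases Hmox1 and Hmox2. They are 9 of the 54418 genes in the deposited count table, found there by Ensembl ID, and all 9 passed the filter on low counts that left 14925 genes tested. The set was chosen by the measured levels of Alad, which were evenly higher in metastasis-derived organoids. In every comparison that involves a metastasis group its levels are therefore given as a description with no test, and the other 8 genes were tested.

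The libraries are poly(A)-selected RNA-seq of mouse colon cancer organoids, which are tumour cells grown as self-organising structures in culture. Every group carries the genotype given as AKP and was recovered from C57Bl6 recipient mice with an intact immune system. Met1, Met2 and Met3 came from liver metastases of transplant rounds 1, 2 and 3, and Primary2 and Primary3 came from primary colon tumours of rounds 2 and 3, with 3 libraries each. First-round primary organoids are not analysed here, so for Met1 against the primaries the round and the tissue of origin cannot be told apart. The labels do not say whether the 3 replicates (rep 1 to 3) of a group are separate mice, lines or cultures, and all p-values reflect the spread among these libraries alone, which may be technical.

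Heme is an iron-bound porphyrin made by nearly all cells. ALAS1, the housekeeping form of aminolevulinate synthase, condenses glycine and succinyl-CoA in the mitochondrion and is the rate-limiting step outside the erythroid lineage. ALAD, UROS and UROD act later in the cytosol, on the building block and the ring, and CPOX, PPOX and FECH finish it in the mitochondrion, where FECH inserts the iron. HMOX1 (inducible) and HMOX2 (constitutive) open the ring to biliverdin, carbon monoxide and free iron.

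Total counts ran from 14122203 to 21306543 per library. Met2 rep 1 stood apart from its group: the chi-square per gene of its counts against the other Met2 libraries was 95.9 and 117. Primary3 rep 2 and rep 3 were the most alike, at 11.6, and all other pairs within groups lay between 37.7 and 55.9. Whether those Primary3 libraries are less independent than the others is not given. The ribosomal RNA gene CT010467.1 took between 2.01% and 7.52% of the counts of a library and was 6.24% or more in all 3 Met2 libraries and in Primary3 rep 2 and rep 3. All 8 colon epithelial markers were detected, and their summed level was 10850 to 13547 CPM (counts scaled to a common library size) in Met1, 5661 to 14682 in Met2 and 11527 to 15133 in Met3, against 5749 to 8342 in Primary2 and 6913 to 8108 in Primary3. Erythroid markers, which would come with the body's main heme-making cells, summed to at most 1.21 CPM in any library, and Alas2, the erythroid aminolevulinate synthase, had 5 counts over all 15. Macrophages recycle heme with HMOX1. Their markers summed to 19.7 to 29.4 CPM in Met1, 8.66 to 14.5 in Met2 and 16.3 to 24.1 in Met3, against 5.96 to 10.4 in Primary2 and 8.15 to 19.7 in Primary3. Of these 8 macrophage markers, Adgre1, C1qa, C1qb and Lyz2 had 0 counts in all 15 libraries. Markers of hepatocytes, another cell type of high heme turnover, summed to 1.43 to 5.96 CPM in Met1, at most 0.335 in Met2 and 0.367 in Met3, against 2.73 to 29.7 in Primary2 and 0.648 to 1.62 in Primary3. The highest of these sums was nearly all Apob, at 28.8 CPM. Fibroblast markers summed to at most 5.16 CPM in any library. Endothelial markers reached 46.3 CPM in Met1 and at most 1.34 CPM in the other 4 groups. That highest sum was nearly all Vwf, at 46.1 CPM. Pecam1 reached at most 0.514 CPM in any library, and Kdr and Emcn had 0 counts in all 15.

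Across the 15 libraries the genes differed more in level than most of them did between groups. Compared per length, as CPM per kb of exon, Alad had the highest median at 29.0 (range 8.50 to 46.7), followed by Hmox1 at 28.4 (12.9 to 73.1) and Hmox2 at 22.6 (19.2 to 29.9). Urod followed at 13.8 (12.4 to 19.7), Cpox at 8.01 (6.73 to 12.6) and Ppox at 5.18 (3.50 to 6.64). Alas1 at 3.81 (2.65 to 8.07), Fech at 2.75 (2.30 to 4.56) and Uros at 1.81 (1.52 to 3.11) had the lowest medians. Neighbours in this order overlapped in range, apart from Cpox and Ppox, whose lowest and highest values were 6.73 and 6.64. Scaled by the length of 1 principal transcript per gene in place of all exons, the order was the same, the levels were higher (for example a median of 12.8 for Ppox and 17.2 for Cpox), and Cpox and Ppox overlapped. By exon length the overlap was narrow between Hmox2 and Urod and between Urod and Cpox. The highest library was 5.67 times the lowest for Hmox1, 5.49 times for Alad and 3.04 times for Alas1. For the other 6 genes this ratio lay between 1.55 and 2.05.

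**Figure D1:**
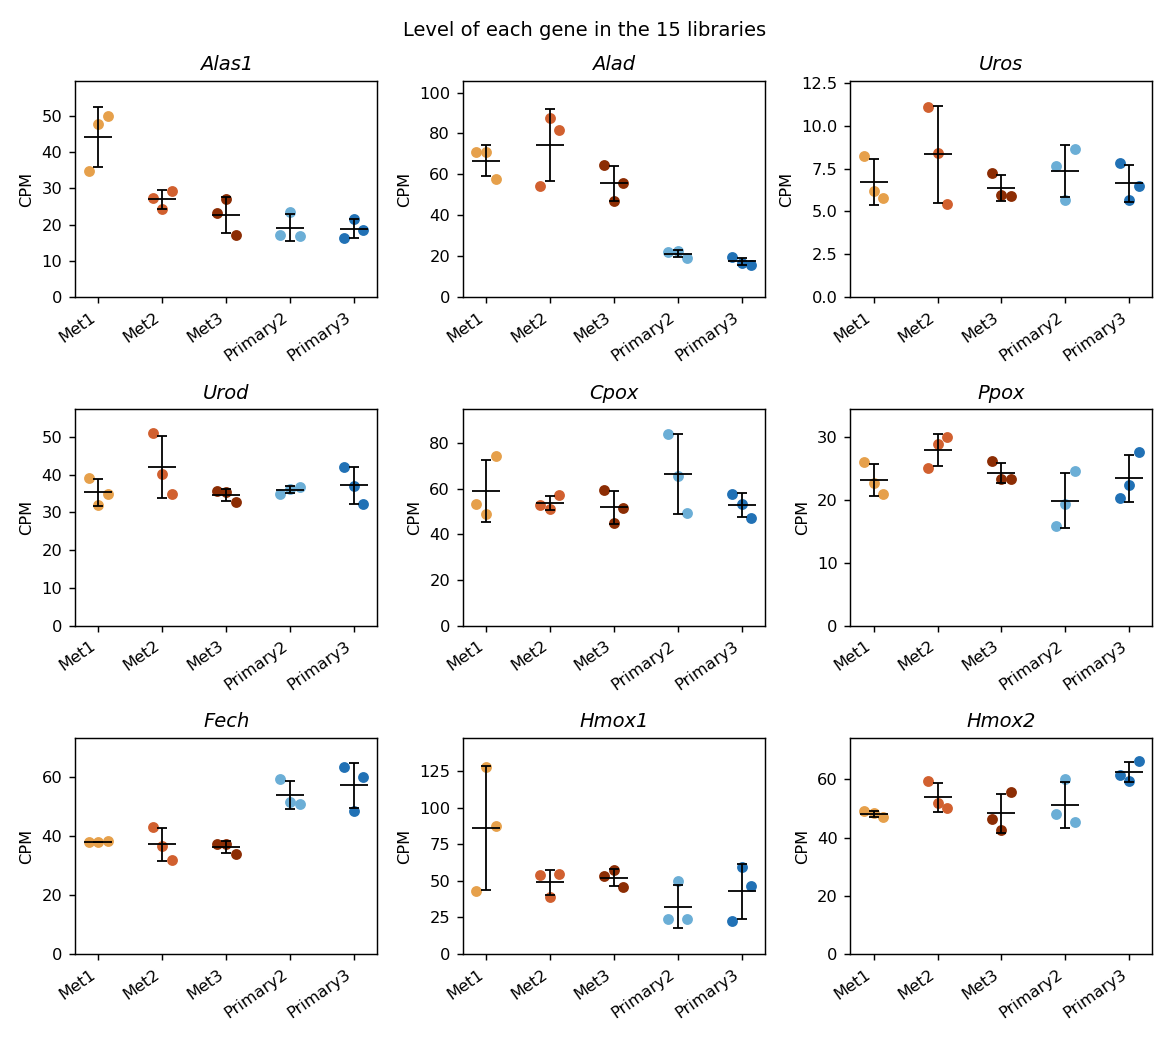
Level in CPM (vertical axis, from 0) of each of the 9 genes in the 15 libraries, with groups along the horizontal axis; points are libraries, and bars are the group mean and SD (n = 3). The 9 metastasis-derived libraries sit between 47.1 and 87.3 CPM for Alad, above all 6 primary-derived ones, and between 31.8 and 42.9 CPM for Fech, below all 6.

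Alad (ENSMUSG00000028393) lies on the minus strand of chromosome 4 at 62509169 to 62519918 (GRCm38) and encodes the enzyme that joins a pair of aminolevulinate molecules into porphobilinogen. Sequence upstream of its most distal listed RefSeq start is shown because Alad is the gene that chose the set, beside that of Urod, the other synthesis enzyme on the same chromosome, whose difference did not pass the test. Each is the 250 bases before a RefSeq transcript start, 5′ to 3′ on the minus strand, from chr4:62520064-62520313 for Alad and chr4:116994414-116994663 for Urod (GRCm38.p6). Capitals mark matches on either strand to the E-box CACGTG, the GC box GGGCGG and the CCAAT box CCAAT.
Alad: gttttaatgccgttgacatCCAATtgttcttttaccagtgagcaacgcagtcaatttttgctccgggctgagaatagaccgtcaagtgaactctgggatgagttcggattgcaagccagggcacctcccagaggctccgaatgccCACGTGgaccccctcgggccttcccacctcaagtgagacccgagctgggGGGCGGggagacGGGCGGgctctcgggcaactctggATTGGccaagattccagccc
Urod: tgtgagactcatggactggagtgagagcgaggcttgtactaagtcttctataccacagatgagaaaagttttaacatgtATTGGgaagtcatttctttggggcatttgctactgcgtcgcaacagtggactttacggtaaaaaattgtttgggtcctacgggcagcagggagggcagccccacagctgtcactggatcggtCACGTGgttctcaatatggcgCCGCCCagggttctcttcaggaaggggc
The Alad window held 1 E-box, 2 GC boxes and 2 CCAAT boxes, and the Urod window held 1 of each. A second Alad window, which overlaps this one and ends nearer the gene, held 1 E-box, 6 GC boxes and 1 CCAAT box. Among 32851 windows of this length in the same table, 6.02% held the E-box, 32.7% the GC box and 33.8% the CCAAT box. The GATA motif AGATAA (in 9.99% of all windows), the antioxidant response core TGACNNNGC (10.2%) and the cyclic AMP element TGACGTCA (1.55%) matched none of the windows of the 7 genes that the table holds, which leaves out Fech and Hmox1. Some of these motifs can overlap others within a window, and a match describes letters only.

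Alad had 71.1, 70.8 and 57.9 CPM in Met1, 54.3, 87.3 and 81.8 in Met2 and 64.3, 47.1 and 55.6 in Met3, against 21.9, 22.3 and 19.2 in Primary2 and 19.5, 16.9 and 15.9 in Primary3. All 9 metastasis libraries lay above all 6 primary libraries, with Met3 rep 2 the lowest of the 9 and Primary2 rep 2 the highest of the 6. The group means were 66.6 ± 7.54, 74.5 ± 17.7 and 55.7 ± 8.63 CPM in Met1, Met2 and Met3, against 21.2 ± 1.68 and 17.4 ± 1.84 CPM in Primary2 and Primary3 (SD, n = 3 each). The fitted log2 change was 1.75 (SE 0.13) for Met2 and Met3 against Primary2 and Primary3, a 3.35-fold difference with a 95% interval of 1.47 to 2.02 on the log2 scale. Within round 2 the log2 change was 1.81 (SE 0.18) and within round 3 it was 1.68 (SE 0.18). Met1 against the same 6 primary libraries gave 1.79 (SE 0.15), or 3.47-fold. These comparisons share primary libraries, so their values are set side by side and are not separate evidence. In bulk RNA a smaller share of cells making a transcript and less of it per cell cannot be told apart, here and in all values that follow. Between metastasis rounds the Alad change was 0.16 (SE 0.18) for Met2 against Met1, -0.26 (SE 0.18) for Met3 against Met1 and -0.42 (SE 0.18) for Met3 against Met2. Primary3 against Primary2, a comparison that did not choose the gene, gave -0.28 (SE 0.18, adjusted p = 0.778 by edgeR's quasi-likelihood test with Benjamini-Hochberg adjustment). Without Met2 rep 1, which had the lowest Alad level of its group, the change was 1.84 for Met2 and Met3 against both primaries and 2.0 within round 2.

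The other 8 genes did not move as a block. For Met2 and Met3 against Primary2 and Primary3, 1 of 8 passed the edgeR quasi-likelihood test at a Benjamini-Hochberg adjusted p under 0.05, and it was lower. Over the 14925 genes tested 30.4% passed (14.3% higher and 16.1% lower). The median log2 change of the 8 was 0.06, against 0.01 over all genes tested, and 5 of the 8 were positive. At an unadjusted p under 0.05 there were 3. The gene that passed was Fech.

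**Figure D2:**
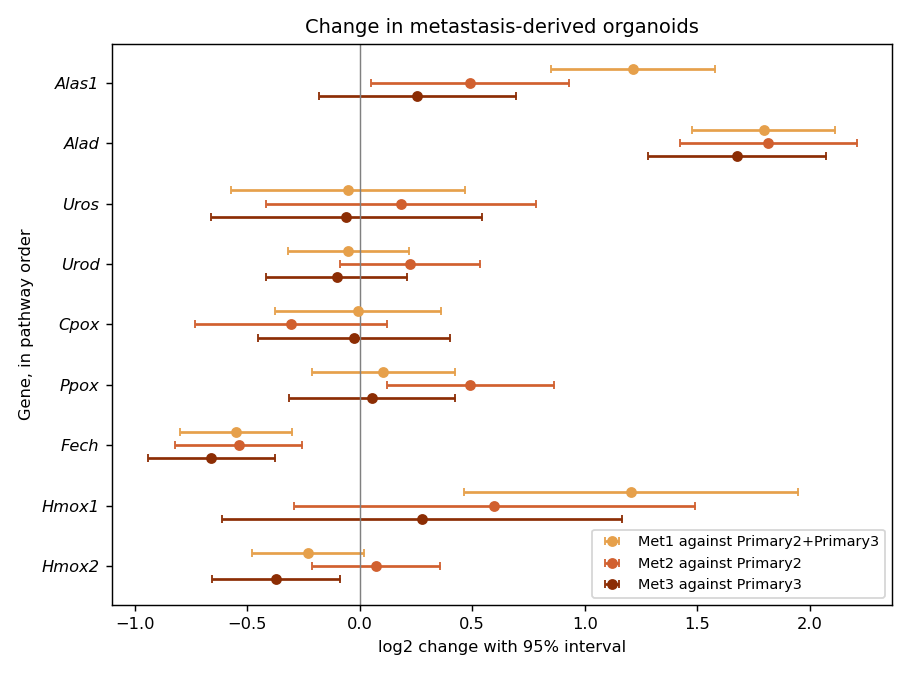
Fitted log2 change (horizontal axis) with its 95% interval for each gene in pathway order down the page. Colours separate Met1 against both primaries, Met2 against Primary2 and Met3 against Primary3. In that order Alad, which chose the set and is not tested, lies at 1.79, 1.81 and 1.68. Fech is negative throughout at -0.55, -0.54 and -0.66, and Alas1 lies at 1.21, 0.49 and 0.26.

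Fech (ENSMUSG00000024588, chromosome 18, 64452914 to 64490251, minus strand) encodes ferrochelatase, the last enzyme of the pathway, and it fell in the metastasis groups. It had 37.8, 37.9 and 38.0 CPM in Met1, 42.9, 36.6 and 31.8 in Met2 and 37.3, 37.3 and 33.8 in Met3, against 59.3, 51.5 and 50.8 in Primary2 and 63.1, 48.4 and 59.7 in Primary3. No metastasis library reached the level of any primary library. Over 6 libraries each, Met2 and Met3 averaged 36.6 ± 3.79 CPM and the primaries 55.5 ± 5.97 CPM (SD). The log2 change was -0.60 (SE 0.092, edgeR quasi-likelihood adjusted p = 0.000649), a ratio of 0.660, and 12.2% of all genes tested had no overlap between these libraries (4.56% higher and 7.69% lower). Without Met2 rep 1 it was -0.66 (adjusted p = 0.000255). Within round 2 the change was -0.54 (SE 0.13, adjusted p = 0.0215), where Fech was the 1 member of 8 that passed and 11.8% of all genes did (5.5% higher and 6.35% lower). Within round 3 the change was -0.66 (SE 0.13, adjusted p = 0.00567), where it was again the 1 of 8 and 19.1% of all genes passed (8.12% higher and 11% lower). The round 2 call was lost when the fit held only the groups compared (adjusted p = 0.144), without the low-count filter (0.0597) and without Primary2 rep 1 (0.0758), Met2 rep 2 (0.0627) or Met2 rep 3 (0.0888).

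Genes of chromosome 18 were lower in the same comparison. Of 389 tested there, 46.5% were lower and 4.88% higher in Met2 and Met3 against the primaries, with a median log2 change of -0.41, and the value of Fech lay below that median. Its 10 nearest tested neighbours had a median of -0.40, and 5 of them passed as lower, namely Piezo2 (-5.21), Txnl1 (-0.48), Wdr7 (-0.67), Onecut2 (-5.48) and Nedd4l (-0.68). In Met1 against the primaries the chromosome's median was -0.39 and 36.5% of its genes were lower. The part of the chromosome in the change of Fech was not tested.

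The neighbours of Alad did not share its difference as a group. The 10 nearest tested genes had a median log2 change of 0.04 in Met2 and Met3 against the primaries, with a range of -6.55 to 1.89. The closest on either side were Hdhd3 at 0.05 and Pole3 at 0.03. Of the 10, Prpf4 (0.39), Rnf183 (1.89) and Bspry (1.28) were called higher and Kif12 (-6.55) lower. Chromosome 4 as a whole had a median of 0.09 over 924 genes. The neighbours of the other members had medians of -0.18 for Alas1, 0.11 for Uros, 0.24 for Urod, -0.20 for Cpox, 0.30 for Ppox, -0.24 for Hmox1 and 0.20 for Hmox2.

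**Figure D3:**
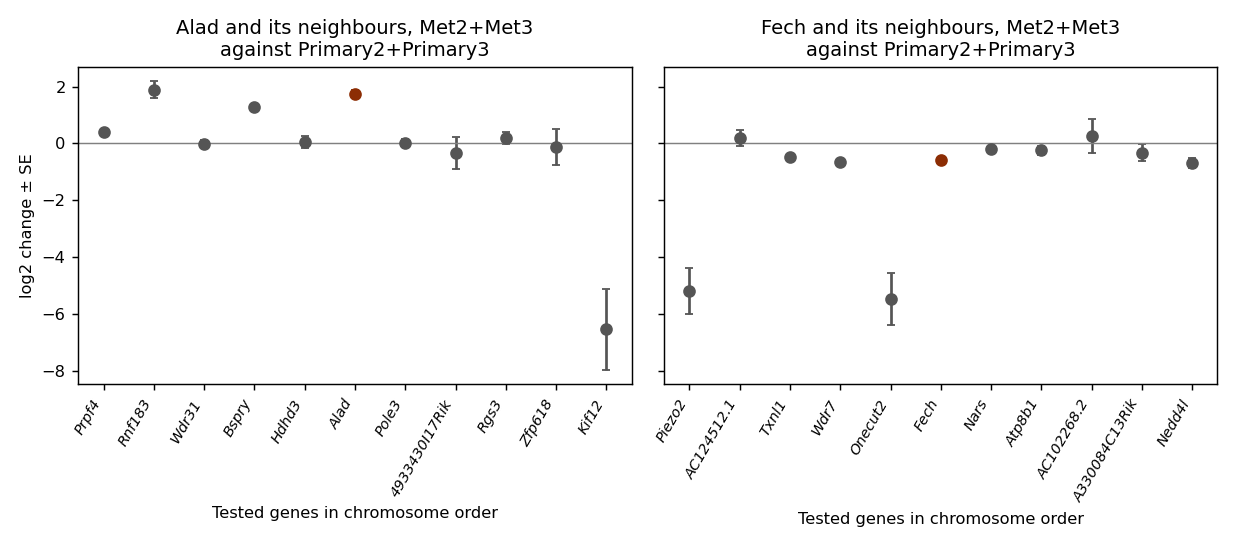
Fitted log2 change ± SE (vertical axis) in Met2+Met3 against both primaries for Alad, for Fech and for the 5 tested genes on each side of either, in chromosome order. Alad stands at 1.75 between Hdhd3 and Pole3, which lie near 0, whereas Fech at -0.60 stands among neighbours whose median is -0.40.

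Alas1 (ENSMUSG00000032786, chromosome 9, 106233455 to 106248654, minus strand), the entry step of the pathway, was highest in the first metastasis round. It had 34.6, 47.7 and 49.8 CPM in Met1, 27.3, 24.2 and 29.2 in Met2 and 23.3, 27.0 and 17.2 in Met3, against 17.2, 23.5 and 16.7 in Primary2 and 16.4, 21.5 and 18.6 in Primary3. The 3 Met1 libraries lay above all others, and the Met2 libraries lay just above the primaries while Met3 overlapped them. The shares of all genes that separate in these ways were not computed. Met1 against both primaries gave a log2 change of 1.21 (SE 0.17, edgeR quasi-likelihood adjusted p = 0.000682), or 2.32-fold. In that comparison 3 of the 8 tested members passed, 2 higher and 1 lower, and over all genes 29.6% passed (14.9% higher and 14.7% lower). The median of the 8 was -0.03, as was that of all genes tested. On chromosome 9 the median was 0.24, with 26.8% of genes higher and 5.63% lower. Alas1 was lower in later rounds than in the first: the log2 change was -0.97 (SE 0.20, adjusted p = 0.00608) for Met3 against Met1 and -0.71 (SE 0.20, adjusted p = 0.033) for Met2 against Met1. In each of these it was the 1 member of 8 that passed, where 23.4% of all genes passed for Met3 against Met1 (11.6% higher and 11.8% lower) and 16.3% for Met2 against Met1 (8.7% higher and 7.57% lower). The call for Met2 against Met1 was lost without Met2 rep 1 (adjusted p = 0.0537), rep 2 (0.0905) or rep 3 (0.0538), without Met1 rep 2 (0.111) or rep 3 (0.0971), and when only those groups were fitted (0.0898). For Met2 and Met3 against the primaries the change was 0.37 (SE 0.14, adjusted p = 0.0649) and did not pass. It did with DESeq2 (adjusted p = 0.0442), without Primary2 rep 2 (0.0351) and without Met3 rep 3 (0.0276). The 10 nearest tested neighbours of Alas1 had a median log2 change of -0.67 for Met3 against Met1, with 4 called lower and 1 higher. For Met2 against Met1 their median was -0.05, with 0 called lower and 1 higher. The part of this region in the change of Alas1 was not tested.

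None of the intermediate enzymes Uros, Urod, Cpox and Ppox was called in any comparison by edgeR's test. Uros (ENSMUSG00000030979, chromosome 7, 133686243 to 133710072, minus strand) encodes uroporphyrinogen III synthase, which closes the ring. It was the least abundant member at 5.43 to 11.1 CPM, with means of 6.74 ± 1.34, 8.34 ± 2.85 and 6.38 ± 0.775 CPM in Met1, Met2 and Met3, against 7.35 ± 1.52 and 6.65 ± 1.09 in Primary2 and Primary3 (SD, n = 3 each). The log2 change for Met2 and Met3 against the primaries was 0.06 (SE 0.20, edgeR quasi-likelihood adjusted p = 0.841). Urod (ENSMUSG00000028684, chromosome 4, 116989965 to 116994413, minus strand) encodes the decarboxylase that follows. It averaged 35.4 ± 3.54, 42.1 ± 8.32 and 34.6 ± 1.59 CPM in Met1, Met2 and Met3, against 36.0 ± 0.968 and 37.2 ± 4.93 in Primary2 and Primary3, and its change was 0.06 (SE 0.10, adjusted p = 0.689). All groups overlapped for both genes.

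Cpox (ENSMUSG00000022742, chromosome 16, 58670292 to 58717636, plus strand) encodes coproporphyrinogen oxidase. It averaged 58.9 ± 13.7, 53.8 ± 3.07 and 51.9 ± 7.25 CPM in Met1, Met2 and Met3, against 66.4 ± 17.5 and 52.8 ± 5.28 in Primary2 and Primary3. The change of -0.16 (SE 0.14, edgeR quasi-likelihood adjusted p = 0.399) for the later metastases against the primaries was within the spread between replicates. Ppox (ENSMUSG00000062729, chromosome 1, 171275990 to 171281186, minus strand) encodes protoporphyrinogen oxidase, which acts just before FECH. It averaged 23.2 ± 2.55, 27.9 ± 2.56 and 24.3 ± 1.63 CPM in Met1, Met2 and Met3, against 19.9 ± 4.41 and 23.4 ± 3.75 in Primary2 and Primary3. Its change was 0.27 (SE 0.12, adjusted p = 0.104). Chromosome 1 as a whole had a median log2 change of 0.24 in the same comparison, with 29.8% of 866 genes higher. The part of the chromosome in the change of Ppox was not tested. Within round 2 the Met2 values of 25.1, 28.8 and 30.0 CPM did not overlap the Primary2 values of 15.8, 19.3 and 24.6. How often genes separate in this way with 3 libraries a side was not computed. The change of Ppox within round 2 was 0.49 (SE 0.17, adjusted p = 0.0767). It passed there with DESeq2 (0.0351) and without Primary2 rep 3 (0.0463), and without that library it also passed for both rounds together (0.0355). Ppox overlaps B4galt3 on the opposite strand, which was itself higher in Met2 and Met3 (log2 change 0.49, adjusted p = 0.00393). Uros overlaps Bccip and Hmox2 overlaps Cdip1, also on opposite strands. The sources used here do not say whether counting used strand, so reads from each such pair may not be told apart.

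Summed per kb of exon over the 7 synthesis enzymes, the libraries held 72.7 to 77.5 CPM per kb in Met1, 72.9 to 85.2 in Met2 and 59.5 to 71.4 in Met3, against 46.2 to 50.6 in Primary2 and 43.3 to 49.3 in Primary3. The metastasis sums lay above all primary ones, a difference that Alad carried. Without it the sums were 36.9 to 41.8, 37.2 to 43.9 and 32.5 to 37.0 CPM per kb in Met1, Met2 and Met3, against 35.9 to 38.9 and 34.8 to 38.9 in Primary2 and Primary3, and the groups overlapped. Alad made up 42.6% to 50.6% of the sum in Met1, 39.8% to 54.8% in Met2 and 42.3% to 48.2% in Met3, against 22.3% to 24.3% in Primary2 and 19.6% to 21.1% in Primary3.

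**Figure D4:**
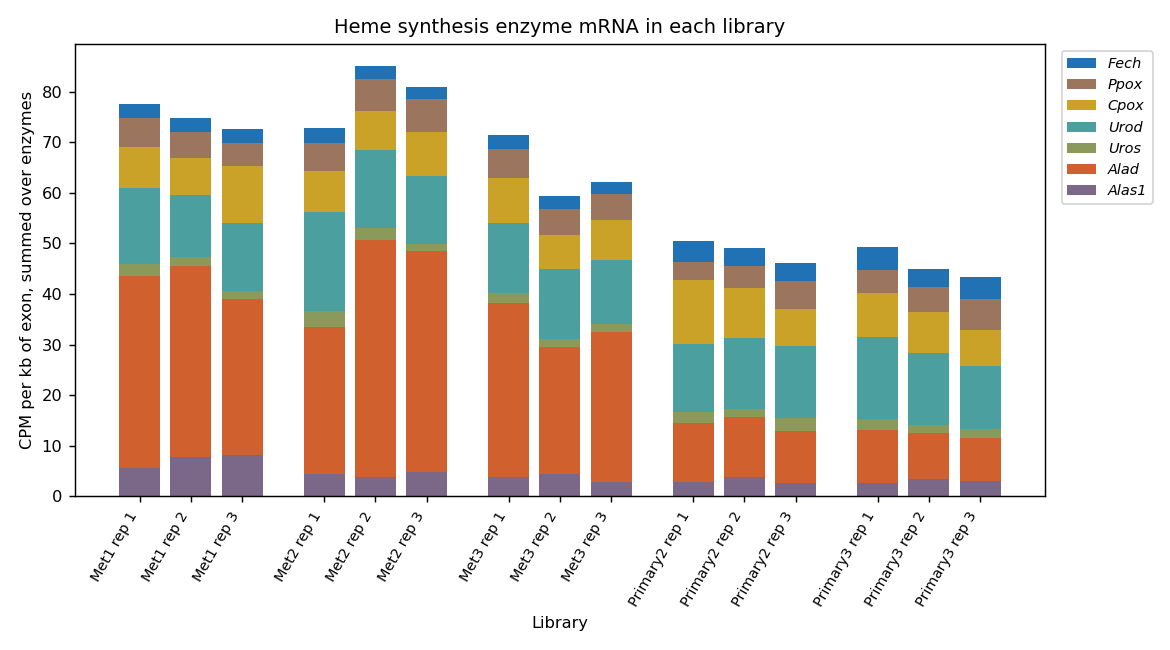
Level of the 7 synthesis enzymes in each library, stacked as CPM per kb of exon (vertical axis, from 0), with libraries along the horizontal axis and 1 colour per enzyme. The Alad layer takes 39.8% to 54.8% of the stack in metastasis libraries and 19.6% to 24.3% in primary libraries, while the other layers together stay between 32.5 and 43.9 CPM per kb in all 15.

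Ratios of raw counts within a library, which do not depend on scaling between libraries, separated the groups for Fech and Urod but not for Alas1. Alad counts were 1.52 to 1.88 times those of Fech in Met1, 1.27 to 2.57 times in Met2 and 1.26 to 1.72 times in Met3, against 0.370 to 0.434 times in Primary2 and 0.266 to 0.349 times in Primary3. Relative to Urod, Alad counts were 1.65 to 2.21, 1.06 to 2.35 and 1.33 to 1.80 times as high in Met1, Met2 and Met3, against 0.522 to 0.627 and 0.456 to 0.492 times in Primary2 and Primary3. Relative to Alas1 they were 1.16 to 2.05, 1.99 to 3.61 and 1.74 to 3.23 times as high in Met1, Met2 and Met3, against 0.949 to 1.27 and 0.785 to 1.19 times in Primary2 and Primary3, so Met1 overlapped both primary groups. The lowest Met2 value of each of the 3 ratios belonged to rep 1, the library that stood apart. These ratios contain Alad and are a description.

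On the breakdown side, Hmox1 (ENSMUSG00000005413, chromosome 8, 75093621 to 75100589, plus strand) varied widely within Met1 and both primary groups. It had 43.0, 128 and 87.3 CPM in Met1, 53.7, 39.2 and 54.5 in Met2 and 53.1, 57.4 and 45.7 in Met3, against 24.0, 49.7 and 23.6 in Primary2 and 22.6, 59.7 and 46.7 in Primary3. Met1 rep 2 and rep 3 exceeded all others, Met1 rep 1 lay among the primaries, and rep 2 was the highest in Met1, Met3 and both primary groups. Met1 against the primaries gave a log2 change of 1.20 (SE 0.34, edgeR quasi-likelihood adjusted p = 0.02), or 2.30-fold. Without Met1 rep 2 it was 0.80 (adjusted p = 0.155) and no longer passed. For Met2 and Met3 against the primaries the change was 0.44 (SE 0.29, adjusted p = 0.276), and for Met3 against Met1 it was -0.73 (SE 0.41, adjusted p = 0.213). The summed macrophage markers given above also reached their highest value in Met1, but the range there overlapped those of Met3 and Primary3. Most of that sum came from Cd68, 4 of the 8 markers were at 0, and their part in the Hmox1 values was not tested. Chromosome 8, where Hmox1 lies, had a median log2 change of -0.30 for Met2 and Met3 and -0.30 for Met1 against the primaries, so Hmox1 lay above the level of its chromosome in both.

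Hmox2 (ENSMUSG00000004070, chromosome 16, 4726361 to 4766742, plus strand) held a narrower range. It had 49.1, 48.5 and 47.1 CPM in Met1, 59.5, 52.0 and 50.1 in Met2 and 46.5, 42.6 and 55.8 in Met3, against 48.0, 60.3 and 45.4 in Primary2 and 61.5, 59.6 and 66.3 in Primary3. Met3 lay wholly below Primary3, at a log2 change of -0.37 (SE 0.13, edgeR quasi-likelihood adjusted p = 0.064), while Met2 overlapped Primary2 at 0.07 (adjusted p = 0.764). The share of all genes that separate with 3 libraries a side was not computed. The round 3 difference passed with DESeq2 (adjusted p = 0.0389) and without Met3 rep 3 (0.0347). The difference between the rounds, tested as an interaction, was -0.44 (SE 0.18, unadjusted p = 0.0327, adjusted p = 0.371).

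No tested member was called in the remaining 3 comparisons, which set later rounds against each other. The edgeR quasi-likelihood test called 0 of 8 for the difference between the rounds' metastasis effects, where 0% of all genes passed, with 1 member at an unadjusted p under 0.05 and 0 called by DESeq2. For Met3 against Met2 it called 0 of 8, where 0.275% of all genes passed (0.0536% higher and 0.221% lower), with 0 at an unadjusted p under 0.05 and 0 by DESeq2. For Primary3 against Primary2 it called 0 of 8, where 0% of all genes passed, with 1 at an unadjusted p under 0.05 and 0 by DESeq2. That gene was Hmox2 (log2 change 0.29, edgeR unadjusted p = 0.0474, adjusted p = 0.70). The interaction value for Alad, given with no test, was -0.14 (SE 0.25).

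The genes with the profile most like Alad came from outside the pathway. Likeness was measured as the root mean square difference between centred log2 CPM over the 15 libraries, among 9331 genes of sufficient level. The closest were Hipk2 (0.352), a kinase, Pde4dip (0.365), which encodes a Golgi and centrosome protein, Sgsm1 (0.368), Fut2 (0.369), a fucosyltransferase, and Acvr1b (0.373), an activin receptor. By the same measure Alas1 was the nearest other member at 0.686, ranked 673 in nearness to Alad among tested genes, and Fech the farthest at 1.18. Pde4dip, the most abundant of the 5, averaged 224, 143 and 136 CPM in Met1, Met2 and Met3, against 60.1 and 50.2 CPM in Primary2 and Primary3.

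Genes that feed, move or use heme gave mixed results in Met2 and Met3 against Primary2 and Primary3, where 14.3% of all genes tested were called higher and 16.1% lower. Of 14 heme and porphyrin transporters and mitochondrial suppliers, 2 were called higher and 3 lower by edgeR's quasi-likelihood test with Benjamini-Hochberg adjustment, with a median log2 change of 0.10, shares near those over all genes. Abcb10, a mitochondrial transporter needed for heme synthesis in red cell precursors, averaged 23.3 ± 4.10 and 29.0 ± 3.69 CPM in Met2 and Met3, against 40.3 ± 5.24 and 38.1 ± 3.72 in Primary2 and Primary3 (change -0.59, adjusted p = 0.00289). Slc46a1, which carries folate and heme into cells, also fell (-0.88, adjusted p = 0.0036), whereas Tmem14c, a porphyrinogen carrier of the inner mitochondrial membrane, rose (0.29, adjusted p = 0.00617), as did the porphyrin transporter Abcb6 (0.55, adjusted p = 0.00722). The counts became 4 higher and 4 lower without Met2 rep 1, and 0 higher and 3 lower without the low-count filter. Neither of the 2 biliverdin reductases, which act after the heme oxygenases, passed.

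Of 11 regulators of heme level, 5 were called higher and 0 lower, with a median of 0.26, against 14.3% higher and 16.1% lower over all genes. Such shares differed between chromosomes, with 24.7% of genes higher on chromosome 9 and 29.8% on chromosome 1, but 4.88% on chromosome 18. The part of chromosome position in the counts of this list and the other lists was not tested. Keap1, which holds the stress factor NRF2 for degradation, averaged 71.7 ± 7.67 and 63.5 ± 2.0 CPM in Met2 and Met3, against 52.2 ± 3.76 and 43.0 ± 2.39 in Primary2 and Primary3 (change 0.51, edgeR adjusted p = 0.000387). Clpx, a mitochondrial unfoldase that acts on aminolevulinate synthase, rose by 0.55 (adjusted p = 0.00182). Mafk, a DNA-binding partner of NRF2 and of the heme sensor BACH1, changed by 0.75 (adjusted p = 0.00561), and Nr1d1, a heme-binding nuclear receptor, by 0.93 (adjusted p = 0.036). The Nr1d1 call was lost under 8 of 19 alternatives, each leaving out 1 library (adjusted p up to 0.0837), and those of Keap1, Clpx and Mafk under 0 of 19. Nfe2l2, which encodes NRF2, was also called higher (edgeR adjusted p = 0.0497), but that call was lost under 11 of 19 alternatives. The list's count fell to 3 without any 1 of 7 libraries, namely Primary2 rep 1, 2 or 3, Primary3 rep 1 or 2, Met2 rep 3 and Met3 rep 2. Of 10 NRF2 targets other than Hmox1, 0 were called higher and 3 lower, with a median of -0.14. The cystine transporter subunit Slc7a11 averaged 64.9 ± 23.1 and 55.9 ± 12.8 CPM in Met2 and Met3, against 205 ± 31.5 and 181 ± 31.8 in Primary2 and Primary3 (change -1.68, adjusted p = 0.000321). Me1, malic enzyme (-1.27, adjusted p = 0.000669), and Gclm, a subunit of the first glutathione synthesis enzyme (-0.45, adjusted p = 0.0149), also fell, and Gclc, the catalytic subunit, was at 0.40 (adjusted p = 0.0513). Without Met2 rep 1 the counts were 2 higher and 3 lower.

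Of 12 genes of iron-sulfur cluster assembly, a pathway that shares mitochondrial iron with FECH, 6 were called higher and 0 lower, with a median log2 change of 0.29, against 14.3% higher and 16.1% lower over all genes. The electron carriers Fdx1 (0.98, edgeR adjusted p = 0.000357) and Fdx2 (0.69, adjusted p = 0.00111) and the cluster carrier Nfu1 (0.67, adjusted p = 0.00316) rose. Fdx1 averaged 76.9 ± 5.03 and 77.4 ± 8.47 CPM in Met2 and Met3, against 37.6 ± 6.71 and 40.8 ± 11.6 in Primary2 and Primary3. Lyrm4, a partner of the desulfurase, changed by 0.49 (adjusted p = 0.0209). With no low-count filter the count was 3. Fdxr and Isca1 were also called higher, but those calls were lost under 13 and 9 of 19 alternatives. In Met1 against the primaries this list gave 1 higher and 2 lower, with a median of -0.16. Of 13 tested genes of iron uptake, storage and export, 1 was higher and 2 lower in Met2 and Met3 against the primaries, with a median of -0.05. The duodenal ferric reductase Cybrd1 (-5.71, adjusted p = 3.73e-05) and the iron exporter ferroportin, Slc40a1 (-1.51, adjusted p = 0.00883), fell, and the ferroxidase Heph rose (2.92, adjusted p = 0.00442). Cybrd1 averaged only 0.207 and 0.108 CPM in Met2 and Met3, against 5.59 and 12.1 in Primary2 and Primary3. Heph ran from 4.85 to 63.3 CPM in Met2, which overlapped Primary2 (up to 9.54) and Primary3 (up to 5.77). In Met3 it ran from 12.5 to 35.1 CPM, above both. Slc40a1 averaged 14.8 ± 12.6 and 9.05 ± 2.40 CPM in Met2 and Met3, against 31.7 ± 7.13 and 34.3 ± 2.60 in Primary2 and Primary3. The transferrin receptor Tfrc was at -0.29 (adjusted p = 0.129). With DESeq2 or without Met2 rep 1 this list gave 2 higher and 2 lower.

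Of 9 heme users, which are genes of heme A and cytochrome c formation, cytochromes and the heme-holding subunits of succinate dehydrogenase, 2 were called higher and 0 lower, with a median of 0.09. These were Sdhc (0.38, edgeR adjusted p = 0.00521) and Sdhd (0.27, adjusted p = 0.0346), both of them such dehydrogenase subunits. Only Sdhc was still called when the low-count filter was dropped or any 1 library was left out among Primary2 rep 3, Primary3 rep 2 or 3, Met2 rep 1 or 2 and Met3 rep 1. Of 8 genes that supply succinyl-CoA and glycine to ALAS1, 1 was called higher, the glycine transporter Slc6a9 (0.82, adjusted p = 0.0248), with a median of 0.15. That call was lost without Primary2 rep 1, Primary3 rep 1 or 3, Met2 rep 3 or Met3 rep 2, and without Met2 rep 1 the suppliers gave 2 higher and 1 lower. In Met3 against Met1, where 11.6% of all genes tested were called higher and 11.8% lower, the same test called 1 higher and 4 lower among the transporters, 1 and 1 among the regulators, 1 and 3 among the iron genes, and 1 and 3 among the NRF2 targets. It called 1 higher and 0 lower among the iron-sulfur genes (DESeq2 called 5 higher) and among the suppliers, and 0 among the heme users and the biliverdin reductases.

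**Figure D5:**
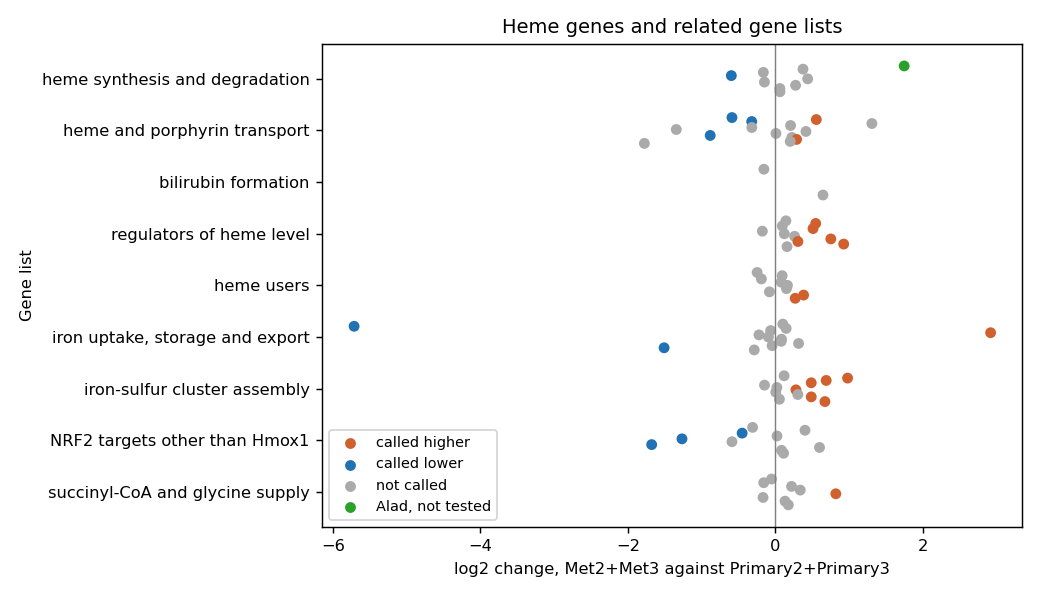
Fitted log2 change in Met2+Met3 against both primaries (horizontal axis) of each tested gene in the member set and in the related lists (1 row per list), coloured by call, with Alad marked as not tested. The 6 called iron-sulfur genes and the 5 called regulators are all to the right of 0, and the 3 called NRF2 targets are to the left.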

How the data were processed

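Salmon 1.3.0 and the build mm10 are named in the submitters' processing notes. The table that the authors deposited holds estimated counts per gene, all whole numbers as deposited (0 values with a fractional part). The annotation, the summing to genes and the use of strand were not given in the sources used here. Libraries were NEBNext Ultra II Directional with poly(A) selection, per the labels' protocols. Library totals of 14122203 to 21306543 counts limit the precision of low genes such as Uros.

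Symbols, positions and exon lengths came from GENCODE M21 (GRCm38), which matched 54096 IDs. Counts were fitted with edgeR 4.0.16 under R 4.3.3 (TMM scaling, filterByExpr, quasi-likelihood F test on group means, all 15 libraries in one fit) for 9 comparisons, with Benjamini-Hochberg adjustment over 14925 genes and calls at an adjusted p under 0.05. CPM uses the TMM-scaled library size. Each SE was taken as the size of the log2 change over the root of its F statistic, and means carry the SD over libraries. The procedure was tested on simulated data with less spread between libraries and fewer changed genes than the real data. That run therefore does not measure the error rate of the calls given here. Promoter windows came from RefSeq (GRCm38.p6).

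The members and gene lists were chosen with earlier results of these data known. All 9 members are named, and from each related list up to 4 genes with the smallest p, with some further called genes. Some genes of these lists are not reported here. Alternatives were DESeq2 1.42.0, other filters and scaling, a replicate block, only the groups compared, the table without CT010467.1, and leaving out each library.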

Additional observations from a re-analysis of the deposited data

How the results depend on the processing

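Over 72 results for single members and 1056 recomputed values, 1036 kept their side of the threshold, 12 lost a call and 8 gained one. In 0 cases did a called value change sign or a gained call go against the reported sign. Sign changes among values that stayed uncalled were not counted, and some occurred. Without Met2 rep 1 the log2 change for Met2 and Met3 against the primaries went from 0.06 to -0.07 for Uros and from 0.06 to -0.02 for Urod. Among the 8 tested members, the count called for Met2 and Met3 against the primaries was 1 in the reported fit, 2 with DESeq2, and 1 to 2 when each library was left out. For Met2 against Primary2 the reported 1 became 0 with no low-count filter, 2 with DESeq2, 0 with only the groups compared, and 0 to 2 with a library left out. For Met3 against Primary3 the reported 1 became 2 with DESeq2 and 1 to 2 with a library left out. For Met2 against Met1 the reported 1 became 0 with only the groups compared and 0 to 1 with a library left out. The counts of the other 5 comparisons kept within 1.5 times under every alternative run. Fitting only the groups compared leaves fewer samples to estimate the spread; the cause of the other changes was not tested. The adjusted p of Fech ranged from 1.3e-07 to 0.00305 over 19 alternatives for Met2 and Met3 against the primaries, and the log2 change of Alad from 1.70 to 1.84.

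The replicate block left each count of called members as reported, at 1 for Met2 and Met3 against the primaries and 3 for Met1 against them. Whether the replicate numbers pair samples across groups is not given in the labels. Of 30 same-numbered pairs 8 had deviations correlated above 0.1 (median 0.0076), and 20 of 60 library and group combinations correlated best with their own number. Weak correlations of this kind cannot show that samples are unpaired. Over all genes the number called depended on the setting: from 1768 it ranged from 215 to 2830 for Met2 against Primary2, from 2850 it ranged from 1372 to 3814 for Met3 against Primary3, and from 4420 it ranged from 2115 to 5237 for Met1 against the primaries. From 3499 it ranged from 1988 to 4388 for Met3 against Met1, from 2428 it ranged from 14 to 3424 for Met2 against Met1, and from 41 it ranged from 0 to 588 for Met3 against Met2. From 0 it reached 225 for the difference between rounds and 44 for Primary3 against Primary2.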

Other observations

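Some genes of iron and heme handling differed between first-round metastases and the primaries, and those given here were picked after their values were seen. Ncoa4, the receptor that delivers ferritin for breakdown and so releases stored iron, had 215, 352 and 233 CPM in Met1, against 100 to 124 CPM in the 6 primary libraries. The log2 change was 1.24 (adjusted p = 0.000295 by edgeR's quasi-likelihood test), and Met3 against Met1 gave -1.20 (adjusted p = 0.00167). Heph, a ferroxidase that loads iron for transport, averaged 81.2 ± 30.4 CPM in Met1, against 4.59 ± 4.35 in Primary2 and 3.23 ± 2.42 in Primary3 (SD, n = 3 each), a log2 change of 4.39 (adjusted p = 0.0014 by edgeR). Its highest Met2 library, at 63.3 CPM, lay above the lowest Met1 library, at 57.6. Abcg2, a porphyrin and drug exporter, had 26.0 CPM in Met1 rep 1 but 2.60 and 1.55 in the other Met1 libraries. Blvrb, a biliverdin reductase, had 14.6, 50.1 and 26.9 CPM in Met1 (change 1.17 against the primaries, adjusted p = 0.0192 by edgeR). Without Met1 rep 2 the Blvrb call was lost (adjusted p = 0.202). Blvra, the other biliverdin reductase, averaged 40.3 ± 5.66 CPM in Met1, against 56.0 ± 4.29 in Primary2 and 59.4 ± 2.71 in Primary3 (SD, n = 3 each), and was called lower by edgeR (-0.52, adjusted p = 0.0179). That call was also lost without Met1 rep 2 (adjusted p = 0.105).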
